A study of Mus musculus with 6 samples.

Results

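The growth hormone and insulin-like growth factor (IGF) axis of the liver was described through 10 genes chosen by name: Ghr, Stat5a, Stat5b, Socs2, Igf1, Igfals, Igfbp1, Igfbp2, Igfbp3 and Igfbp4. The members were the rows of the deposited table whose gene name equals one of these symbols, and 8 of the 10 had such a row among 41096 annotated rows. Socs2 and Stat5a were found only through the protein named in a row's description, which was tried once the table had been seen, so the counts of members below cover the other 8 and these 2 are given beside them. All 8 passed the low-count filter, as did both further rows. Polyadenylated RNA came from mouse liver in 2 groups, 3 libraries of liver exposed to the plasticizer di(2-ethylhexyl) phthalate (DEHP) and 3 control libraries without it. The exposed columns of the table carry the word High, and the labels give no dose, duration, strain, age or sex, and do not say that the libraries of a group came from separate animals, so p-values measure the spread between these libraries only.

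Growth hormone binds its receptor on hepatocytes, and the kinase JAK2 then activates STAT5 proteins, which enter the nucleus and switch on Igf1, Igfals and Socs2 among other genes. Most circulating IGF-1 comes from the liver and travels bound to IGF-binding proteins, much of it in a ternary complex with IGFBP3 and the acid-labile subunit that Igfals encodes. SOCS2 is the feedback brake on the receptor, and IGFBP1 is a short-lived carrier whose gene is restrained by insulin through FOXO1.

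The start regions of 3 members are shown because they carry or lack the letters through which these signals are known to act. They are RefSeq windows on GRCm38.p6, from 250 bases before to 50 after the annotated start, and the promoter table held 9 of the 10 symbols in 15 windows. Letters searched on both strands were TTCNNNGAA (the STAT element), CAAAACA (a stretch of the insulin response element) and the DR1 direct repeat that PPAR receptors bind, a pair of AGGTCA copies with any 1 base between them, and matches are in capitals. Igfbp1 lies at chr11:7197537-7197836 on the plus strand. Igfbp3 lies at chr11:7213874-7214173 on the minus strand. The Igfals window is the second of 3, at chr17:24877981-24878280 on the plus strand.
Igfbp1: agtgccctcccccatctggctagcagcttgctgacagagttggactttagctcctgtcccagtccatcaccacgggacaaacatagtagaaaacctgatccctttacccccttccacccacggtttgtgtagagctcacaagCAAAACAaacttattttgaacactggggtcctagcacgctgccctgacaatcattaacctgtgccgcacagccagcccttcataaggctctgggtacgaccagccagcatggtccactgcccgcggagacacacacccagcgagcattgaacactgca
Igfbp3: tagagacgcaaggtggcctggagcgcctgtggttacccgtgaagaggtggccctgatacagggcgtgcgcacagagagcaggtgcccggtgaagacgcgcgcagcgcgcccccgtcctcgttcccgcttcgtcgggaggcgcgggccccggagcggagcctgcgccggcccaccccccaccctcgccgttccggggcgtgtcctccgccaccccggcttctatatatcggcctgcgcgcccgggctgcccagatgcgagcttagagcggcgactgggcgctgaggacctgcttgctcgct
Igfals: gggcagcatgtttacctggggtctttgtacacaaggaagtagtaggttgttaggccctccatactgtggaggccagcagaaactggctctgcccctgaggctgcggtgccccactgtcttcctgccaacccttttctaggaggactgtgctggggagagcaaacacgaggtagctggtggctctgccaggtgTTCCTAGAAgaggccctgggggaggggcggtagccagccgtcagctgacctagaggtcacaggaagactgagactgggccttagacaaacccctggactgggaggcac

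The Igfbp1 match begins at position -108, counted from the start at +1, and 6.28% of all 32851 windows hold those letters. The Igfals match begins at position -58, and another window of the same gene holds TTCTCAGAA, beginning at position -236. Of all windows 8.3% hold the STAT letters, and among the members' 15 windows only these Igfals windows did. Socs2 was the symbol without a window, so its start region was not searched. The direct repeat occurred in 0.0396% of windows and in 0 of the members' 15. The Igfbp3 window holds none of the 3, and 71.7% of its bases are G or C, against 54.3% for Igfbp1. A match describes the letters and is not evidence of a bound site.

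Total counts ran from 10410098 to 14229803 a library. Hepatocyte markers were abundant, 7 tested ones summing to 96334 to 127018 CPM (counts scaled to library size) in DEHP libraries and 108180 to 150614 in controls. Controls differed among themselves, since 26 interferon-stimulated genes summed to 432 to 493 CPM in DEHP libraries and to 4851, 3960 and 456 CPM in control replicates 1 to 3. Isg15, a ubiquitin-like antiviral protein, stood at 4.66, 5.06 and 6.46 CPM in DEHP replicates 1 to 3 and 491, 280 and 4.34 CPM in control replicates 1 to 3. The 19 acute phase genes summed to 23405 to 28895 CPM in DEHP libraries and to 54854, 51003 and 29776 CPM in control replicates 1 to 3. Results for the members are therefore also given without control replicates 1 and 2, a fit with 1 control library, in which the spread comes from the DEHP libraries alone and the lone control is assumed to vary like them. The part of this difference between controls in the members' values was not tested.

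Of the 8 members 0 passed an adjusted p of 0.05 in edgeR's quasi-likelihood test over 12468 genes, where 0.0722% of genes did (0.0561% higher and 0.016% lower). With unadjusted p under 0.05 as the rule, 4 of 8 members were called, with Ghr, Igfbp1 and Igfbp2 higher and Igfbp3 lower in DEHP libraries, against 13.1% of all genes tested (6.11% higher and 6.97% lower). DESeq2 and limma-voom also called 0 of 8 after adjustment, with the same 4 genes at an unadjusted p of 0.05. The DEHP and control libraries did not overlap for 4 of 8 members, against 17.7% of all genes. These were Ghr, Igf1 and Stat5b with all DEHP libraries higher (9.17% of all genes) and Igfbp3 with all lower (8.57%). The median log2 fold change of DEHP over control was 0.21 over the 8 members and -0.03 over all genes tested. With 1 library left out, the members at an unadjusted p of 0.05 changed. Without DEHP replicate 1 they were Ghr and Igfbp1, where 1852 of 12922 genes were at that p. They were Igfbp2 and Igfbp3 without DEHP replicate 2 (959 of 12945 genes) and Igfbp1 and Igfbp3 without DEHP replicate 3 (1230 of 12908). Leaving out control replicate 2 gave Ghr and Igfbp3 (1366 of 12840 genes). Leaving out control replicate 3 gave Ghr, Igfbp1, Igfbp2 and Igfbp3, 4 of 8, where 2058 of 12890 genes were. Without control replicate 1, 0 of 8 members were at an unadjusted p of 0.05, where 949 of 12783 genes were, and without control replicates 1 and 2 together, 0 of 8, where 642 of 13437 were, with no replicate among the controls.

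**Figure D1:**
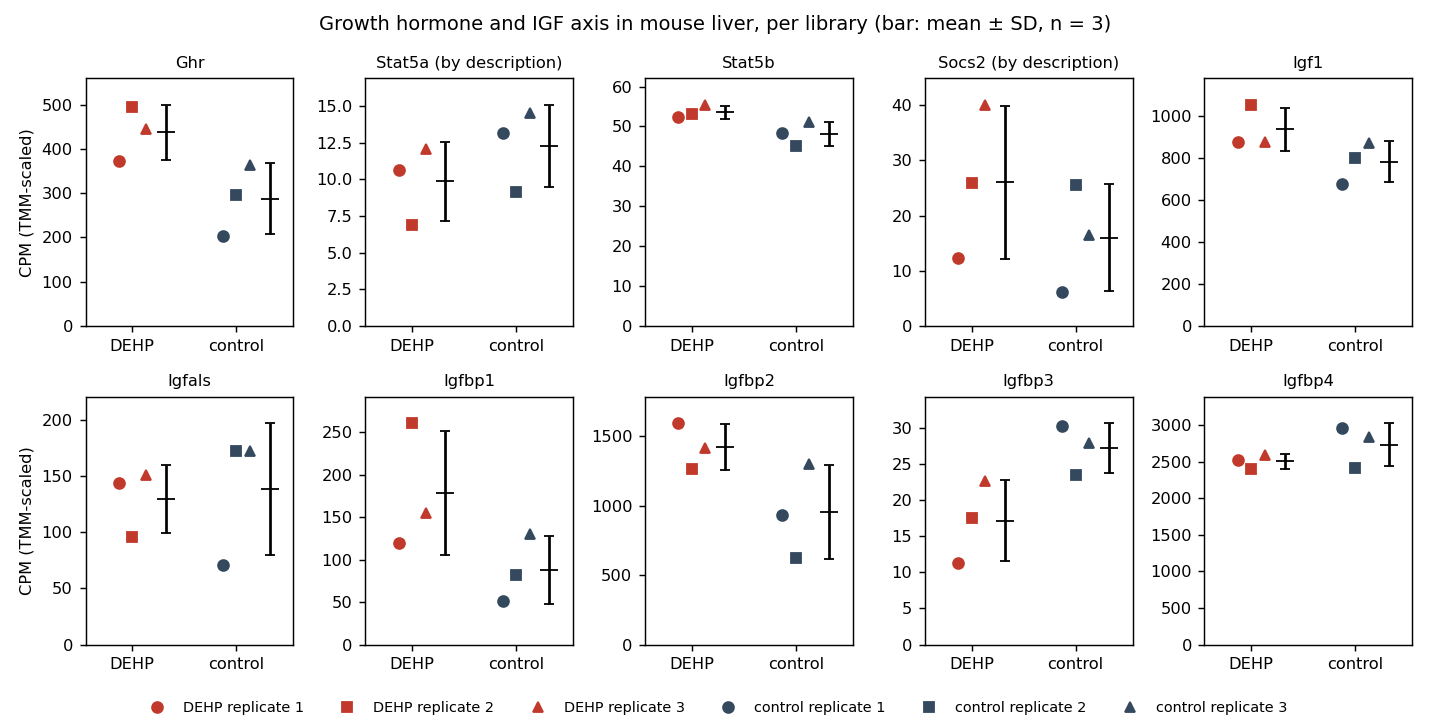
Library-scaled counts (CPM, vertical axes from 0) of the 10 genes in 3 DEHP libraries (red, left in each panel) and 3 control libraries (dark, right), with the marker shape giving the replicate number and the bar the mean ± SD. Ghr sits between 372 and 495 CPM in DEHP libraries and between 204 and 365 CPM in controls, while Igfals and Socs2 overlap widely.

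Ghr encodes the growth hormone receptor and spans chromosome 15 from 213640 to 502525 on the minus strand, in the C57BL/6NJ strain coordinates of the table. It stood at 372, 495 and 445 CPM in DEHP replicates 1 to 3, against 204, 295 and 365 CPM in control replicates 1 to 3. All DEHP libraries lay above all controls, but DEHP replicate 1 and control replicate 3 were close. The log2 fold change was 0.60 ± 0.23 (SE, edgeR unadjusted p = 0.0188, adjusted p = 0.307), a fitted level 1.52-fold that of controls. Without control replicates 1 and 2 it was 0.28.

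Stat5b, the main growth hormone-activated STAT of liver, had the smallest fold change of the members whose groups did not overlap. It had 52.3, 53.1 and 55.4 CPM in DEHP replicates 1 to 3 and 48.3, 45.04 and 51.1 CPM in control replicates 1 to 3. DEHP libraries were all higher, by a log2 fold change of 0.15 ± 0.18 (SE, adjusted p = 0.757), which was 0.08 without control replicates 1 and 2. The row described as Stat5a, its close paralogue, starts 9605 bases beyond the end of Stat5b on chromosome 11. It had 10.6, 6.89 and 12.1 CPM in DEHP replicates 1 to 3, against 13.2, 9.17 and 14.5 CPM in control replicates 1 to 3. The groups overlapped, at -0.32 ± 0.29 (SE, adjusted p = 0.692). It was -0.10 without DEHP replicate 2, -0.16 without control replicate 3 and -0.55 without control replicates 1 and 2. The 2 genes are alike in sequence, and the sources used here do not say how reads shared between them were counted, so their split is uncertain.

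The row described as Socs2, the feedback brake, had the widest spread of the 10. It had 12.3, 25.8 and 40.01 CPM in DEHP replicates 1 to 3 and 6.10, 25.4 and 16.4 CPM in control replicates 1 to 3. DEHP replicate 2 and control replicate 2 were close, and the log2 fold change was 0.71 ± 0.62 (SE, adjusted p = 0.690). It was 0.26 without DEHP replicate 3, 0.32 without control replicate 1 and 1.22 without control replicate 2, and 0.68 without control replicates 1 and 2. Cish, a sister feedback gene of Socs2, named here although outside the rule for named genes, had 9.92, 12.8 and 29.99 CPM in DEHP replicates 1 to 3. In control replicates 1 to 3 it had 6.95, 14.3 and 4.61 CPM (log2 fold change 1.03 ± 0.51 SE, adjusted p = 0.436). Socs2 and Cish were both highest in DEHP replicate 3, but other Socs genes were not. Socs3 was highest in control replicate 1, at 24.2 CPM against 15.5 CPM in DEHP replicate 3. Its log2 fold change was -0.27 ± 0.27 (SE, edgeR adjusted p = 0.722). Socs1, given below, was highest in control replicate 2.

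Igf1 encodes the hormone itself and spans chromosome 10 from 91907890 to 91987972. It had 880, 1055 and 879 CPM in DEHP replicates 1 to 3, against 679, 801 and 876 CPM in control replicates 1 to 3. The groups did not overlap, but DEHP replicate 3 and control replicate 3 were nearly level, and the log2 fold change was 0.26 ± 0.19 (SE, adjusted p = 0.611). It was 0.16 without control replicate 1 and 0.11 without control replicates 1 and 2. An antisense gene, Igf1os, overlaps the locus with 709 counts over all libraries beside 60729 for Igf1, and the sources used here do not say whether counting used strand. Igfals, the acid-labile subunit of the ternary complex, had 143, 95.2 and 151 CPM in DEHP replicates 1 to 3 and 70.8, 172 and 172 CPM in control replicates 1 to 3. Control replicate 1 was the lowest library and the other controls the highest, and the log2 fold change of -0.09 ± 0.32 (SE, adjusted p = 0.938) took the other sign in 3 fits, at 0.10 with control replicate 2 left out, at 0.12 with control replicate 3 left out and at 0.10 with DEHP replicate 2 left out. It was -0.41 without control replicate 1 and -0.40 without control replicates 1 and 2. Both liver-made partners of the circulating complex were lowest in control replicate 1, but Igf1 was highest in DEHP replicate 2, where Igfals was below every library except control replicate 1.

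**Figure D2:**
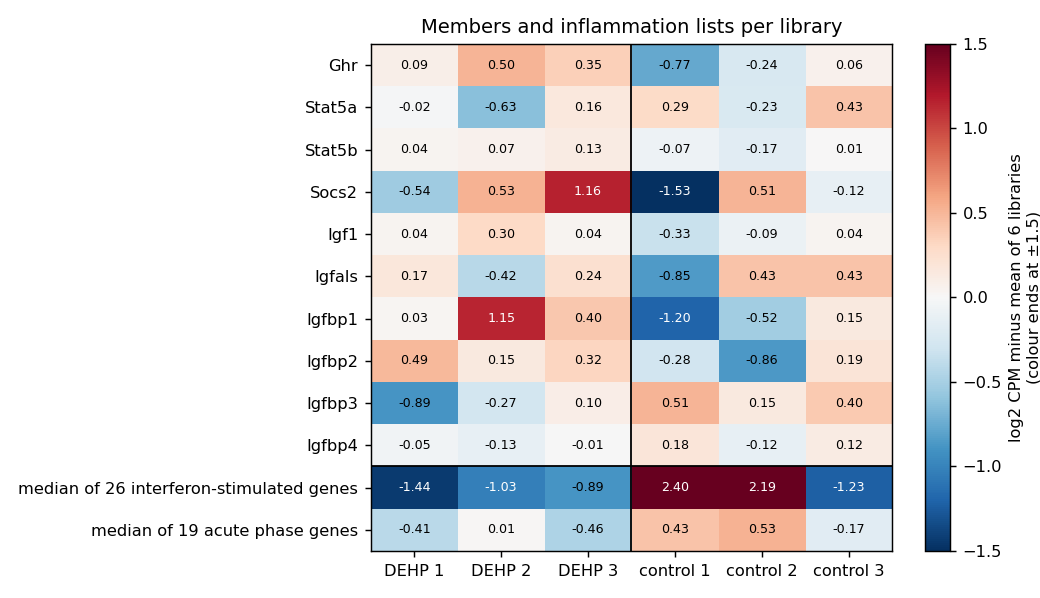
Log2 CPM of each gene minus its mean over the 6 libraries (colour and printed value), for the members and for the medians of 26 interferon-stimulated and 19 acute phase genes, with DEHP libraries in the left columns. Igfbp1 is highest in DEHP replicate 2 (1.15) and lowest in control replicate 1 (-1.20), and the interferon row lies between -1.44 and -0.89 in DEHP libraries and control replicate 3, against 2.40 and 2.19 in control replicates 1 and 2.

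Among the binding proteins, Igfbp1 had the largest log2 fold change of the 10 genes. It stood at 119.9, 260 and 155 CPM in DEHP replicates 1 to 3, against 50.9, 81.6 and 130 CPM in control replicates 1 to 3. Control replicate 3 lay above DEHP replicate 1, so the groups overlapped. The log2 fold change was 1.03 ± 0.38 (SE, edgeR unadjusted p = 0.0251, adjusted p = 0.329), a fitted 2.04-fold. It passed without control replicate 3 (1.46, edgeR adjusted p = 0.0279), where 400 of 12890 genes did, against 9 of 12468 in the main fit. It also passed with no low-count filter (1.05 ± 0.22 SE, edgeR adjusted p = 4.00e-04), where 496 of 20576 genes did. It was 0.47 without control replicates 1 and 2 and 0.66 without DEHP replicate 2.

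Igfbp2, a carrier that hepatocytes make in quantity, had 1590, 1260 and 1414 CPM in DEHP replicates 1 to 3, against 933, 624 and 1298 CPM in control replicates 1 to 3. Control replicate 3 fell within the DEHP range, and the log2 fold change was 0.58 ± 0.25 (SE, edgeR unadjusted p = 0.0345, adjusted p = 0.355). It was 0.14 without control replicates 1 and 2, 0.35 without control replicate 2 and 0.89 without control replicate 3. Igfbp4, which limits IGF access to receptors, had 2527, 2397 and 2601 CPM in DEHP replicates 1 to 3, against 2958, 2410 and 2844 CPM in control replicates 1 to 3. Its groups overlapped, at -0.13 ± 0.19 (SE, adjusted p = 0.824), and -0.17 without control replicates 1 and 2.

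Igfbp3, the main carrier of IGF-1 in plasma, went the other way from its neighbour Igfbp1. It had 11.3, 17.4 and 22.6 CPM in DEHP replicates 1 to 3, against 30.2, 23.4 and 27.8 CPM in control replicates 1 to 3. All DEHP libraries lay below all controls, DEHP replicate 3 and control replicate 2 being close, and the log2 fold change was -0.66 ± 0.25 (SE, edgeR unadjusted p = 0.0208, adjusted p = 0.315). It was -0.68 without control replicates 1 and 2 and between -0.91 and -0.42 with 1 library left out, nearest 0 without DEHP replicate 1. In rat liver Igfbp3 RNA is found in cells other than hepatocytes. Sinusoidal endothelial markers summed to 239 to 438 CPM in DEHP libraries and 417 to 569 CPM in controls, and unadjusted 3 of 11 were lower, where 6.97% of all genes were. Stellate cell markers summed to 240 to 304 CPM in DEHP libraries and 358 to 547 CPM in controls, also with 3 of 11 lower, and none of either list was at 0 in all libraries. Kupffer cell and macrophage markers summed to 279 to 404 CPM in DEHP libraries and to 889, 816 and 262 CPM in control replicates 1 to 3. Unadjusted, 6 of these 12 were lower, beside the same 6.97% of all genes. Fewer cells of a type and less RNA per cell cannot be told apart in whole tissue, and the part of these cells in the Igfbp3 values was not tested.

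Igfbp1 and Igfbp3 lie tail to tail on chromosome 11, from 4483212 to 4487928 on the plus strand and from 4491468 to 4499305 on the minus strand, with 3539 bases between them. Their count ratio within a library does not depend on scaling. Igfbp1 to Igfbp3 was 10.6, 14.9 and 6.85 in DEHP replicates 1 to 3, against 1.69, 3.49 and 4.68 in control replicates 1 to 3. The groups did not overlap, and the mean log2 ratio was higher by 1.77 in DEHP libraries, 3.40-fold (exact two-sided permutation p = 0.1, the smallest that 3 libraries against 3 can give). The difference was 1.13 without control replicates 1 and 2 and between 1.34 and 2.08 with 1 library left out. Both this ratio and that of Igfbp2 to Igfbp4 were chosen after the values were seen. For both, the lack of overlap and the permutation p are therefore descriptions and not tests.

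Per length, using the gene lengths of the table, Igfbp2 and Igfbp4 were the most abundant transcripts of the axis, at 868 ± 101 and 569 ± 23.4 CPM per kilobase in DEHP libraries and 581 ± 206 and 621 ± 65.6 in controls (SD, n = 3). Igfbp1 came next in DEHP libraries (117 ± 47.9 CPM per kilobase, SD), followed by Igf1 (94.7 ± 10.2), Igfals (61.4 ± 14.3) and Ghr (48.3 ± 6.83). In controls the order below the top pair was Igf1 (79.3 ± 10.01), Igfals (65.4 ± 27.6), Igfbp1 (57.4 ± 26.2) and Ghr (31.8 ± 8.87). Stat5b, Igfbp3, Socs2 and Stat5a followed in DEHP libraries (10.3 to 1.38 CPM per kilobase), and in controls Stat5b and Igfbp3 (9.29 and 8.67) lay above Stat5a and Socs2 (1.72 and 1.68). In both groups Igfbp1 and Igf1 lay within 1 SD of each other, as did Socs2 and Stat5a. So did Igfals and Ghr in DEHP libraries and, in controls, Igfbp2 and Igfbp4, Igf1 and Igfals, Igfals and Igfbp1, Igfbp1 and Ghr, and Stat5b and Igfbp3. The order of these neighbours is therefore not set by these data.

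The make-up of the 4 binding protein transcripts was compared per length. Igfbp2 took 59.7%, 51.7% and 55.3% of their counts in DEHP replicates 1 to 3, against 44.4%, 38.6% and 51.8% in control replicates 1 to 3, so DEHP replicate 2 and control replicate 3 were level. Igfbp4 took 35.2%, 36.5% and 37.7% in DEHP replicates 1 to 3, against 52.3%, 55.3% and 42.1% in control replicates 1 to 3. Per length, Igfbp2 was thus the larger of the pair in all DEHP libraries and in control replicate 3. Igfbp4 was the larger in control replicates 1 and 2, the libraries with high interferon-stimulated genes. In counts not divided by length, Igfbp4 was the larger in every library, so which is larger rests on the gene lengths used. The Igfbp2 to Igfbp4 count ratio was 0.629, 0.526 and 0.544 in DEHP replicates 1 to 3, against 0.315, 0.259 and 0.457 in control replicates 1 to 3. The groups did not overlap (mean log2 difference 0.76, exact two-sided permutation p = 0.1, again the lower limit), and the difference was 0.31 without control replicates 1 and 2.

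**Figure D3:**
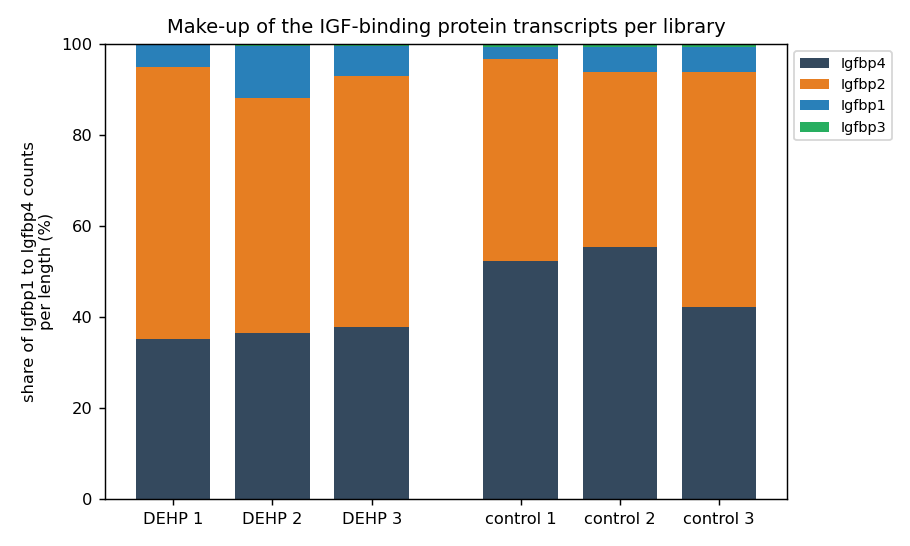
Share of the counts per length of Igfbp1 to Igfbp4 taken by each gene (stacked bars, percent), per library, with DEHP libraries on the left. Igfbp4 takes 35.2% to 37.7% in DEHP libraries and 42.1% to 55.3% in controls, and Igfbp3 stays under 1% throughout.

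Of 27 other genes of the pathway 22 were tested and 0 passed over all genes. Unadjusted, at the same 0.05, 0 were higher and 3 lower, where 6.11% of all genes were higher and 6.97% lower. Of the 22, 4 had a positive log2 fold change, where 47.1% of all genes had, and the median was -0.25. Igfbp7, a secreted relative of the binding proteins with low affinity for IGF, had 62.5, 57.8 and 81.2 CPM in DEHP replicates 1 to 3, against 105, 120 and 133 CPM in control replicates 1 to 3. All DEHP libraries were lower (log2 fold change -0.83 ± 0.20 SE, adjusted p = 0.151), and DESeq2 called it (adjusted p = 0.0160). Socs1, an interferon-induced brake on JAK kinases, had 0.608, 0.262 and 1.02 CPM in DEHP replicates 1 to 3, against 7.73, 7.82 and 0.177 CPM in control replicates 1 to 3. Its split was that of the interferon-stimulated genes, at -3.04 ± 1.10 (SE, adjusted p = 0.327, and 0.0215 with DESeq2). Stat3, which cytokines and growth hormone activate, had 82.9, 73.2 and 89.2 CPM in DEHP replicates 1 to 3, against 114, 116 and 96.9 CPM in control replicates 1 to 3 (-0.42 ± 0.19 SE, adjusted p = 0.368). Jak2, the receptor's kinase, was at -0.24 ± 0.24 (SE, adjusted p = 0.718) and Insr, the insulin receptor, at 0.11 ± 0.19 (SE, adjusted p = 0.843), both picked after their values were seen. Igf2 and Igf1r, among the 5 that were not tested, had at most 13 counts in any library.

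**Figure D4:**
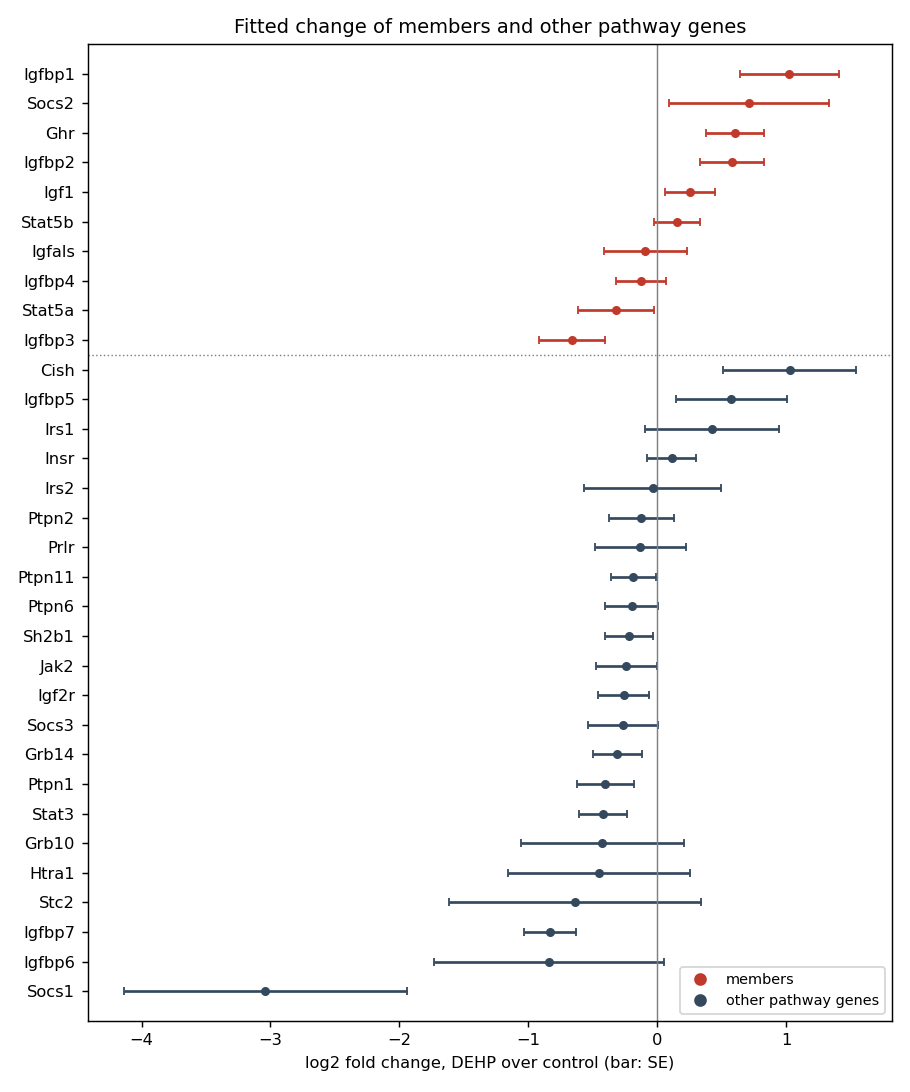
Log2 fold change of DEHP over control with its SE for the 10 members (red, above the dotted line) and 22 other pathway genes (dark, below it). Members run from -0.66 (Igfbp3) to 1.03 (Igfbp1), and most other pathway genes lie left of 0.

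Many mouse liver genes differ between the sexes because growth hormone is released in pulses in males and more steadily in females. Of 19 male-biased genes of this kind 8 had a tested row under their own symbol, with 0 past the adjusted threshold. Unadjusted, 2 of these 8 were higher and 0 lower (6.11% and 6.97% of all genes), and their median log2 fold change was -0.05. Susd4, a complement regulator, had 39.6, 29.8 and 28.0 CPM in DEHP replicates 1 to 3, against 12.9, 16.4 and 16.0 CPM in control replicates 1 to 3 (1.10 ± 0.22 SE, adjusted p = 0.128). Cyp7b1, an oxysterol 7-alpha-hydroxylase, had 249, 388 and 256 CPM in DEHP replicates 1 to 3, against 111, 122 and 187 CPM in control replicates 1 to 3 (1.09 ± 0.25 SE, adjusted p = 0.142). Both had all DEHP libraries above all controls and were called by DESeq2 (adjusted p = 0.00319 and 0.00417). Among rows with a symbol, next by p came Ugt2b38, a glucuronosyltransferase, at -0.66 ± 0.64 (SE, adjusted p = 0.708). Matching descriptions made 15 tested rows, again with 0 past the adjusted threshold, and 2 of the added rows were lower unadjusted. The row described as Gstp1, a glutathione transferase, had 310, 263 and 143 CPM in DEHP replicates 1 to 3, against 454, 370 and 440 CPM in control replicates 1 to 3, all DEHP libraries being lower (-0.82 ± 0.25 SE, adjusted p = 0.230). The row described as Serpina1e, a protease inhibitor, was at -0.60 ± 0.26 (SE, adjusted p = 0.353). Both belong to families of near-identical genes, so their counts are uncertain.

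Of 19 female-biased genes 13 had a row and 6 were tested, with 0 past the adjusted threshold. Unadjusted, 3 were higher and 0 lower, where 6.11% and 6.97% of all genes were, and the median was 0.51. Fmo2, a flavin monooxygenase, had 36.8, 85.8 and 91.7 CPM in DEHP replicates 1 to 3, against 23.2, 48.2 and 41.9 CPM in control replicates 1 to 3. DEHP replicate 1 lay below 2 of the controls, and the log2 fold change was 0.92 ± 0.37 (SE, adjusted p = 0.356). Atp6v0d2, a proton pump subunit, had 2.13, 5.23 and 12.1 CPM in DEHP replicates 1 to 3, against 3.19, 2.77 and 2.57 CPM in control replicates 1 to 3. DEHP replicate 1 lay below every control, and the log2 fold change was 1.20 ± 0.52 (SE, edgeR adjusted p = 0.367). Matching descriptions again left 6 tested rows. The row described as Cyp2b9 did not pass the low-count filter, with 84, 9 and 103 counts in DEHP replicates 1 to 3. It had 0, 1 and 3 counts in control replicates 1 to 3. The labels give no sex, and rows of many listed genes carry no symbol, so these lists are summarized only by their tested rows.

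For the insulin side of Igfbp1 control, all 10 listed insulin-suppressed genes were tested, with 0 past the adjusted threshold. Unadjusted, 2 were higher (6.11% of all genes) and 0 lower (6.97%), and the median was -0.04. Pdk4, which restrains pyruvate oxidation in fasting, had 5.37, 12.3 and 14.2 CPM in DEHP replicates 1 to 3, against 2.41, 2.61 and 5.41 CPM in control replicates 1 to 3 (1.62 ± 0.43 SE, adjusted p = 0.172). G6pc, the glucose-releasing phosphatase, had 263, 466 and 408 CPM in DEHP replicates 1 to 3, against 200, 250 and 242 CPM in control replicates 1 to 3 (0.72 ± 0.23 SE, adjusted p = 0.233). Ppargc1a, the coactivator PGC-1alpha, came next by p, at 0.38 ± 0.40 (SE, adjusted p = 0.734). Of 8 insulin-induced genes 7 were tested, and 0 passed. Unadjusted, 0 were higher and 1 lower, beside those same shares of all genes, with a median of -0.33. That gene, Pklr, the liver pyruvate kinase, had 39.9, 33.6 and 51.7 CPM in DEHP replicates 1 to 3, against 76.5, 114 and 35.7 CPM in control replicates 1 to 3 (-0.85 ± 0.37 SE, adjusted p = 0.380). The next by p were Fasn, fatty acid synthase, at -0.39 ± 0.24 (SE, adjusted p = 0.507), and Scd1, a stearoyl-CoA desaturase, at 0.45 ± 0.37 (SE, adjusted p = 0.657). Of the 10 insulin-suppressed genes 4 had a positive and 6 a negative log2 fold change. Of the 7 tested insulin-induced genes 1 was positive and 6 negative, where 47.1% of all genes were positive.

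Genes whose centred log2 CPM lay nearest to that of a member, by root-mean-square difference over the 6 libraries, were sought among 7074 tested genes with a mean of at least 10 CPM (7075 for Socs2). For Igfbp1 the nearest was Nfil3, a basic leucine zipper repressor, at 0.11 log2 units, with 33.5, 59.9 and 38.6 CPM in DEHP replicates 1 to 3 and 11.2, 18.4 and 30.4 CPM in control replicates 1 to 3. Tdo2, which opens tryptophan breakdown, followed at 0.17. For Igfbp2 the nearest were Tk1, thymidine kinase, at 0.09 and Cpsf3l, an Integrator subunit, at 0.15. For Igf1 they were Fuca1, a lysosomal fucosidase, and Rnf111, a ubiquitin ligase, at 0.05 each, and for Socs2 Fmo2 at 0.33 and Hacl1, a peroxisomal lyase, at 0.40. The search takes the best of many genes over 6 libraries, so near matches arise without any tie.

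**Figure D5:**
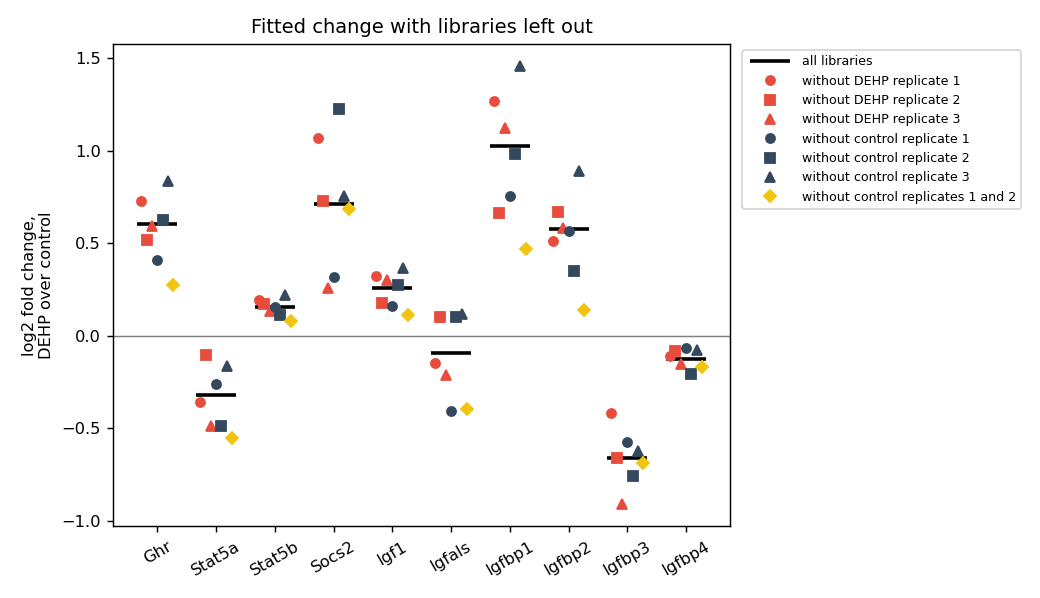
Log2 fold change of DEHP over control for the 10 genes with all libraries (black bars), with each library left out (red, a DEHP library; dark, a control) and without control replicates 1 and 2 (yellow). Igfbp1 runs from 0.47 to 1.46 and Igfals lies on both sides of 0, while Igfbp3 stays between -0.91 and -0.42.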

How the data were processed

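Libraries were made from polyadenylated liver RNA with a strand-marking kit and sequenced as paired ends, per the labels' protocols. The authors deposited raw whole-number counts for each gene as a single table of 42380 rows, with gene lengths. The design text describes another assay, so groups were taken from sample titles. The build GRCm38.p6 is named in the submitters' processing notes, while the identifiers are those of the C57BL/6NJ strain annotation, so table coordinates and RefSeq windows are not interchangeable. No source used here names the aligner or counter. The 1284 rows without a gene name (2.73% to 4.28% of counts) were left out.

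The test was edgeR 4.0.16 under R 4.3.3, with filterByExpr (minimum count 10), TMM scaling, a robust quasi-likelihood fit, and two-sided p-values adjusted by Benjamini-Hochberg over 12468 genes at a threshold of 0.05. CPM use the TMM-scaled totals of tested genes, and log2 CPM a prior count of 2. Standard errors were derived from the F statistic. DESeq2 1.42.0, limma-voom (limma 3.58.1), RLE scaling, other filters, a fit that was not robust, a replicate block and libraries left out were the alternatives, and description matching and 2 count ratios were added once the data had been seen. On simulated data the fit recovered 52% of genes given the smaller of 2 sizes of change and 100% of those given the larger. Of its 163 calls there, 11 were false. In the deposited data the fit called 9 of 12468 genes. Isg15, at a log2 fold change of -5.58, was not among them (edgeR adjusted p = 0.350). The shares recovered in the simulation therefore need not hold for these libraries. Counts of each pair of libraries in a group differed beyond sampling noise (chi-square over its degrees of freedom 28.4 or more).

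The members and gene lists were chosen with earlier results of these data known. The rule for named genes took all members, the 3 smallest p of each other pathway list, the 2 nearest genes of 4 members and up to 3 abundant genes of each inflammation list. Cish, Socs3, Jak2, Insr, Igf2, Igf1r and Cyp2b9 fall outside it and were chosen after their values were known. A gene that the rule names is not reported here.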

Additional observations from a re-analysis of the deposited data

How the results depend on the processing

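With 1 library left out, the count of all genes called ran from 5 to 400 and the count of members from 0 to 1. All genes called numbered 496 with no filter, 261 with DESeq2, 2 with limma-voom and 0 without control replicates 1 and 2 (edgeR, 642 at an unadjusted p of 0.05), against 9. That last fit has 1 control library and takes its spread from the DEHP libraries alone. With no filter edgeR called 1 member, Igfbp1, and, in the lists, 3 other pathway genes, 2 male-biased, 1 female-biased, 2 insulin-suppressed and 1 insulin-induced gene. DESeq2 called 2 other pathway genes, 2 male-biased genes and 1 insulin-suppressed gene. With 1 library left out, each of these lists ran from 0 to 1, except the male-biased genes (0 to 2) and the female-biased genes (0 throughout), and every call above 0 came without control replicate 3. Igfals ran from -0.41 to 0.12 with 1 library left out and took the other sign in 3 of these fits, at 0.10 without control replicate 2, 0.12 without control replicate 3 and 0.10 without DEHP replicate 2. The other 9 genes kept their direction in all 14 alternatives. The cause of these shifts was not tested. With a replicate block, 6 of all genes and 0 members passed, and log2 fold changes were 1.06 for Igfbp1 and 0.63 for Ghr. Deviations of same-numbered libraries from their group means correlated at -0.02, 0.06 and -0.03, and those of differently numbered libraries at -0.05 to 0.06. The labels do not say whether same-numbered libraries shared a step, and with 3 libraries a group these values cannot decide it. Limits are the 3 libraries a group, the high interferon-stimulated genes of control replicates 1 and 2, and list genes without a symbol.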
